A study of Mus musculus with 36 samples.

Results

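The cadherins Cdh1, Cdh2 and Cdh3, the epithelial adhesion molecule Epcam, the intermediate filament gene Vim and the transcription factor genes Snai1, Snai2, Zeb1, Zeb2 and Twist1 were followed through 8 days of differentiation of mouse embryonic stem cells (mESCs). The 10 genes were taken by symbol from the deposited table of 25965 genes, where each has 1 line. Xmas mESCs are female C57/Bl6 cells with GFP at Hprt on 1 X chromosome and mCherry at Hprt on the other. They were expanded in 2i medium with leukaemia inhibitory factor (LIF). The inhibitors of MEK and GSK3 in 2i medium hold mESCs in the naive state. Differentiation was induced by weaning the cells stepwise into serum medium without these inhibitors and without LIF, so that the first days were in mixed medium. The serum medium is named DME HiHi in the labels, and RNA was taken daily on days 0 to 8. There are 4 libraries a day, 36 over the 9 days: X14 double, X14 single, X18 double and X18 single. X14 and X18 are cell lines, each a single line, and the meaning of the words double and single is not given in the labels, so that they serve here as names only. Nothing in the labels says that the libraries of a day came from separate cultures beyond these names, and p-values then measure only the spread between these libraries.

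Epithelial to mesenchymal transition (EMT) is the process by which cells of an epithelial sheet lose their junctions and become motile. In the textbook course the Snail, Zeb and Twist factors silence Cdh1, which encodes E-cadherin, and Cdh2, which encodes N-cadherin, takes its place, an exchange called the cadherin switch. Snail and Zeb proteins bind the E-box CACCTG through their zinc fingers. Naive mESCs carry E-cadherin at their contacts, and EMT takes place in the embryo when cells pass through the primitive streak.

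Levels are given as RPM, reads per 1000000 reads of the library, and levels of different genes are compared as RPKM, which divides RPM by the length of the exons in kilobases. The study names the deposited values log2 RPM, but they were read here as log2 RPKM, a unit inferred from the values themselves, and the RPM below were computed from them. The libraries held 612740 to 2445826 reads in genes, and 3 reads, taken as the floor, were worth 1.04 to 3.90 RPM. The summed RPM of 5 naive mESC markers was 3758 ± 516 (SD, n = 4) on day 0 and 421 ± 183 on day 8, so the starting cells carried the markers of their label. The X14 libraries of day 0 differed from all other pairs of double and single in X chromosome expression. Relative to the autosomes, the median log2 level of 569 X-linked genes was 1.29 lower in double than in single in X14 on day 0, whereas in the other 17 pairs it was 0.19 to 1.17 higher in double. The main results against day 0 are also given without these X14 libraries. Day 0 is then X18 alone, set against both lines on later days with no term for line. Such values mix day with line. An exchange of labels between these X14 libraries would itself leave the means of day 0 unchanged.

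Of the 10 genes, 9 passed the limit of 1 RPM in at least 4 of the 36 libraries that was set for testing. Snai2 did not pass, with 12 reads in all 36 libraries, at most 3 in 1 library and none in 29. A gene was called when its adjusted p in limma, over all 14612 genes tested, was under 0.05 with a log2 fold change of 1 or more either way. In the words used below, a gene rose or fell only where it was called.

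The genes lie on 6 chromosomes of mm10. Cdh3 (chr8:106510913-106556908) and Cdh1 (chr8:106603351-106670246) are neighbours on the plus strand, 46442 bases apart. Vim (chr2:13573927-13582826), Snai1 (chr2:167538195-167542814) and Zeb2 (chr2:44983634-45117395, minus strand) share chromosome 2, and Epcam (chr17:87635979-87651106), Snai2 (chr16:14705852-14709395) and Twist1 (chr12:33957671-33959817) lie apart. All 10 are annotated as protein coding in GENCODE M21, and the values are over their merged exons.

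Promoter windows of 250 bases before to 50 after the start of transcription were taken from RefSeq for GRCm38.p6, the assembly of mm10. Windows were found for Epcam, Vim, Snai1, Twist1 and Zeb2, the last with 4 starts. The letters CACCTG were searched on both strands (CACCTG or CAGGTG), as was any E-box, CANNTG, which includes them. Of all 32851 windows, 20.2% held CACCTG or CAGGTG and 72.3% held CANNTG. Epcam and Snai1 are shown because their windows held CACCTG or CAGGTG, the letters bound by the factors described below, and every CANNTG is in capitals.
Epcam, chr17:87635729-87636028, plus strand: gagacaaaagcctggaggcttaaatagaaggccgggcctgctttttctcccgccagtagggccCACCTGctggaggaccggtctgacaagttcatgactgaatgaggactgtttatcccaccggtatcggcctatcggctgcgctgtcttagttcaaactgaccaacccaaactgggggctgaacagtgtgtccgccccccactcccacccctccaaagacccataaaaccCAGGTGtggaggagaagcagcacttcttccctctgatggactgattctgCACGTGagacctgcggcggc
Snai1, chr2:167537945-167538244, plus strand: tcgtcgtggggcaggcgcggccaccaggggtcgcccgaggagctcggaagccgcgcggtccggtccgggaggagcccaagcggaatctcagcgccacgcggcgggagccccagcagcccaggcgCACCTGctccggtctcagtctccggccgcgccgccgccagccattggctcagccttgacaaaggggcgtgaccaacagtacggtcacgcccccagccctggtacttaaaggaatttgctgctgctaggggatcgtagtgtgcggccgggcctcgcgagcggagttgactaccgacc
The Epcam window held CACCTG at -187, CAGGTG at -19 and CACGTG at 31, and the Snai1 window held CACCTG at -126, each counted from the start of transcription to the first base of the match. The windows of Vim, Twist1 and Zeb2 held no CANNTG. A match is a description of letters and was not tested for binding.

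Cdh1 was the most abundant of the 3 cadherins in every library, and no exchange of Cdh1 for Cdh2 was seen in these 9 days. Per kilobase Cdh1 made up at least 85.1% of the summed RPKM of Cdh1, Cdh2 and Cdh3 in each of the 36 libraries. The share of Cdh2 reached at most 1.15%, on day 8, and was at most 1.15% on day 0 as well. The log2 ratio of Cdh2 to Cdh1 RPKM was -7.75 ± 1.67 (SD, n = 4) on day 0, -9.43 ± 1.36 on day 5 and -8.45 ± 1.97 on day 8, so the spread within a day was as large as the difference between days. The name of a cadherin switch thus describes the choice of genes and not their course in these libraries.

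**Figure D1:**
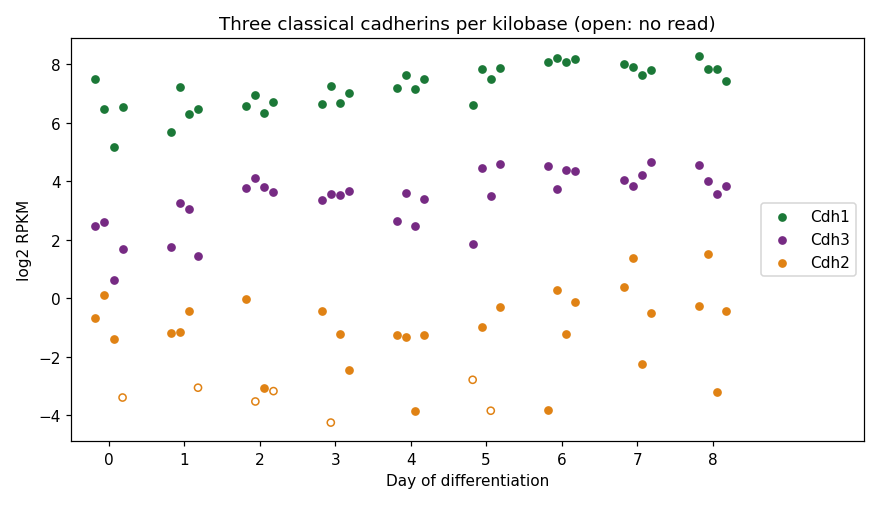
Level of Cdh1, Cdh3 and Cdh2 in each of the 36 libraries, as log2 RPKM (y axis) against day (x axis). The 4 points of a day are X14 double, X14 single, X18 double and X18 single from left to right, and open points had no read, written as 0.9 read. Cdh1 lies above Cdh3, and Cdh3 above Cdh2, in every library.

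Cdh1, which encodes E-cadherin, rose. In the order X14 double, X14 single, X18 double, X18 single it stood at 822, 402, 166 and 430 RPM on day 0 and at 1422, 1060, 1044 and 793 RPM on day 8. Only the X14 double library of day 0 reached into the range of day 8. On the log2 scale Cdh1 differed by 1.43 ± 0.31 (SE; adjusted p in limma 3.43e-04), and it was 1.98 without the X14 libraries of day 0 (adjusted p = 1.38e-05). The highest mean was on day 6, 1287 ± 60.2 RPM (SD, n = 4), when all libraries were above all those of day 0. Cdh1 was first called on day 5, by 1.04 ± 0.31, a call lost without replicate 2, 3 or 4 (0.62 to 0.94, adjusted p of 0.0694 to 0.202) and with 75th percentile scaling (0.95), while without the X14 libraries of day 0 it was 1.59 (adjusted p = 3.29e-04). On day 4 its log2 fold change was 0.95 ± 0.31 (adjusted p = 0.0235), under the minimum fold change, and 1.499 without the X14 libraries of day 0 (adjusted p = 7.82e-04).

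Cdh3, which encodes P-cadherin, rose earlier. It stood at 22.2, 24.1, 6.17 and 12.8 RPM on day 0, at 54.2, 69.2, 55.5 and 49.7 RPM on day 2 and at 94.5, 63.7, 47.0 and 57.1 RPM on day 8. The groups of days 2 and 8 did not overlap with day 0. In limma Cdh3 had risen by 1.98 ± 0.44 on the log2 scale on day 2 (adjusted p = 0.00976) and by 2.14 ± 0.44 on day 8 (adjusted p = 1.66e-04). The level on day 4, 21.96 to 47.9 RPM, was in between, and its call (1.17 ± 0.44, adjusted p = 0.0469) was lost under 8 alternatives (0.91 to 1.23, adjusted p of 0.0523 to 0.26). Without the X14 libraries of day 0 the value of day 4 was 1.86 (adjusted p = 0.00471), that of day 2 was 2.67 and that of day 8 was 2.83, all called. Leaving out replicate 3 or 4 ended the calls of Cdh3 on days 2, 3 and 5 (1.28 to 1.99, adjusted p of 0.0562 to 0.332). On day 5 the X14 double library, the shallowest of all 36, held 14.3 RPM while the other 3 held 45.0 to 94.9 RPM.

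Cdh2, which encodes N-cadherin, was low throughout. It had 280 reads in the 36 libraries and none in 7 of them. It stood at 5.09, 8.80, 3.08 and 0 RPM on day 0 and at 6.75, 23.3, 0.870 and 5.95 RPM on day 8, with overlapping groups. Day 8 differed from day 0 by 0.74 ± 1.04 on the log2 scale (limma, adjusted p = 0.591), and Cdh2 was called on none of days 1 to 8 against day 0. The value of day 8 was 1.80 without the X14 libraries of day 0 (adjusted p = 0.248). Pooled over 4 libraries, 67 reads on day 8 against 33 on day 0 gave a ratio of 2.20 in RPM, with an exact 95% interval of 1.43 to 3.44 that covers counting error only. Of the 67 reads, 48 came from X14 single. At this depth a change of Cdh2 was not detectable beyond the spread between libraries.

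Epcam, an epithelial cell surface glycoprotein and cell adhesion molecule, rose from day 3 on. It stood at 66.2, 70.4, 56.5 and 87.9 RPM on day 0, at 341, 331, 378 and 406 RPM on day 4 and at 267, 350, 481 and 510 RPM on day 8. Every library from day 3 on was above every library of day 0. In limma the log2 fold change of day 3 was 1.42 ± 0.19 (adjusted p = 4e-06). It was 2.39 ± 0.19 for day 4 (adjusted p = 2.85e-11) and 2.49 ± 0.19 for day 8 (adjusted p = 1.93e-12). For days 3, 4 and 8 the values were 1.40, 2.36 and 2.47 without the X14 libraries of day 0, all called. The highest mean was on day 5, 500.3 ± 34.0 RPM (SD, n = 4). From day 4 to day 8 the difference was 0.10 ± 0.19 (adjusted p = 0.73), and on day 8 the X18 libraries, 481 and 510 RPM, lay above those of X14.

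**Figure D2:**
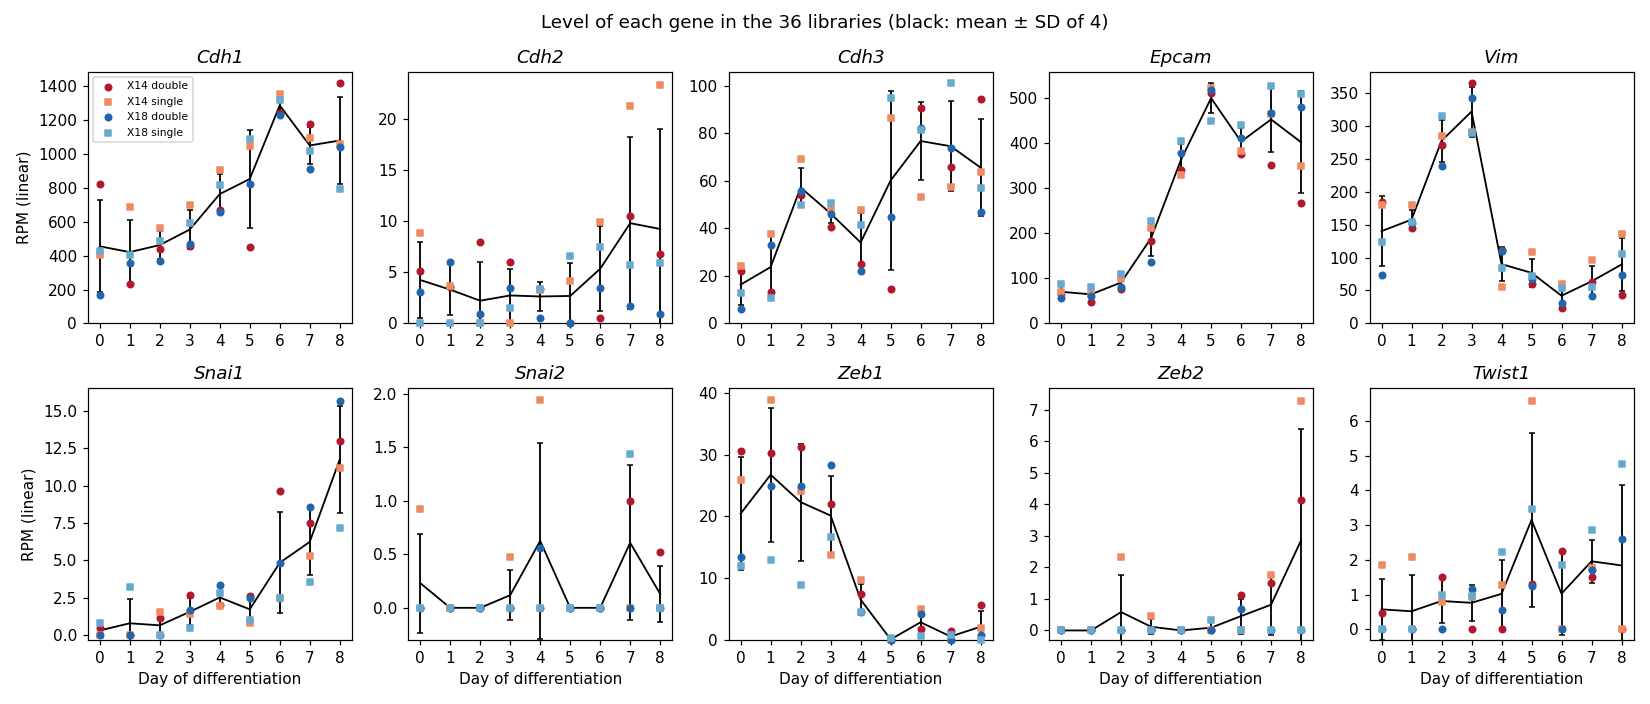
RPM of each of the 10 genes (y axes, linear, each with its own scale) against day (x axis) in the 36 libraries, with circles for double, squares for single, red shades for X14 and blue shades for X18. The black line joins the means and the bars are SD of 4 libraries. Epcam climbed to a mean of 500.3 RPM on day 5, Vim peaked on day 3 and the mean of Zeb1 was 0.0869 RPM on day 5 and at most 2.85 RPM after it.

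Vim, which encodes the intermediate filament protein vimentin, rose and then fell. It stood at 185, 180, 73.0 and 123 RPM on day 0, at 365, 290, 342 and 289 RPM on day 3, at 23.2, 60.5, 30.4 and 53.9 RPM on day 6 and at 42.6, 136, 74.0 and 105 RPM on day 8. The libraries of day 3 were all above, and those of day 6 all below, those of day 0. On the log2 scale Vim changed by 1.28 ± 0.32 to day 3 (limma, adjusted p = 0.00676) and by -1.75 ± 0.32 to day 6 (adjusted p = 3.8e-05). The value of day 8, -0.68 ± 0.32 (adjusted p = 0.076), was not called. Without the X14 libraries of day 0 the value on day 3 was 1.76, that on day 6 was -1.28, that on day 8 was -0.21, and the call on day 7 (-1.11 ± 0.32) was lost (-0.64, adjusted p = 0.152). The call on day 3 was lost without replicate 3 (0.97, adjusted p = 0.169) or replicate 4 (1.30, adjusted p = 0.0852), as was that on day 2, which was also lost with no filter and with 75th percentile or quantile scaling (adjusted p of 0.0652 to 0.0793). Without replicate 1 the value of day 7 was -0.96 and not called. Up to day 4 the summed RPM of 3 neural markers took a like course. Its means were 99.0 on day 0, 136, 167 and 147 on days 1 to 3 and 55.1 on day 4. Those of Vim were 140.04, 157, 277, 322 and 89.97 RPM. On days 6 to 8 the courses parted. The sum was then at 41.0, 22.9 and 26.2 RPM and Vim at 42.0, 63.8 and 89.3 RPM. Most of the neural sum was Tubb3, a neuronal tubulin, with 84.1 RPM on day 0 and 131 on day 3. Pax6 was at 13.9 and 14.1 RPM and Sox1 at 1.01 and 1.70 RPM on these days. The part of these markers in the values of Vim was not tested.

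The transcription factor genes did not move together. Zeb1, a zinc finger factor known as a repressor of Cdh1, fell. It stood at 30.5, 25.9, 13.4 and 11.95 RPM on day 0, at 7.39, 9.70, 4.51 and 4.48 RPM on day 4 and at 5.71, 1.94, 0.870 and 0 RPM on day 8, and neither later day overlapped with day 0. On day 5 the 4 libraries held 1 read of Zeb1 against 149 on day 0, a ratio of 0.00671 in RPM (exact 95% interval 1.69e-04 to 0.0380, counting error only). By day 8 the log2 fold change was -3.39 ± 0.58 (limma, adjusted p = 1.56e-05), and for Zeb1 -2.82 without the X14 libraries of day 0 (adjusted p = 0.0015). On day 4 it was -1.61 ± 0.58 (adjusted p = 0.0396), a call that was lost with each of the 4 replicates left out in turn (adjusted p of 0.0573 to 0.154) and without the X14 libraries of day 0 (-1.03, adjusted p = 0.269). The exons of Zeb1 overlap those of Gm10125 on the other strand, and whether counting used the strand is not given in the sources used here, so reads of both genes could be counted as Zeb1.

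Snai1, which encodes Snail, rose from below the floor. It had 1, 0, 0 and 1 reads on day 0, 3, 3, 6 and 5 on day 4 and 25, 23, 18 and 6 on day 8, and the level on day 8 was 13.0, 11.2, 15.7 and 7.14 RPM. Every library of day 8 was above every library of day 0. Over the 4 libraries the ratio of day 8 to day 0 was 39.0 in RPM, with an exact 95% interval of 10.4 to 328 from counting error only. The log2 fold change in limma was 4.18 ± 0.54 (adjusted p = 1.47e-07), a value that depends on the 0.9 read written for no read, and 3.67 without the X14 libraries of day 0 (adjusted p = 3.59e-05). From day 4 to day 8 it was 2.19 ± 0.54 (adjusted p = 0.00204). The call of day 4 (1.98 ± 0.54, adjusted p = 0.00699) was lost without replicate 3 (adjusted p = 0.0561) and without the X14 libraries of day 0 (1.47, adjusted p = 0.0796). On day 5 Snai1 was not called (1.30 ± 0.54, adjusted p = 0.0601), but it was with the replicate number as a block (adjusted p = 0.0467).

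Zeb2, the paralog of Zeb1, had no read on day 0 and 8, 15, 0 and 0 reads on day 8, so that it was seen on day 8 in X14 alone. Set against a floor of 3 reads over the 4 libraries, day 8 was at least 8.30-fold higher. Zeb2 was called on day 8 (1.92 ± 0.53, limma, adjusted p = 0.00327), but not without replicate 2 (1.19, adjusted p = 0.079) nor without the X14 libraries of day 0 (1.41, adjusted p = 0.068). The line difference by stage was 1.52 ± 0.41 with an adjusted p of 0.539. Its exons overlap Zeb2os on the other strand. The summed RPM of 4 primitive streak and mesoderm markers on day 8 was 38.4 and 232 in the X14 libraries and 18.3 and 82.1 in the X18 libraries, and its part in the Zeb2 reads was not tested.

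Twist1, a basic helix-loop-helix factor, had at most 10 reads in a library. It stood at 0.463, 1.85, 0 and 0 RPM on day 0, at 1.30, 6.58, 1.25 and 3.47 RPM on day 5 and at 0, 0, 2.61 and 4.76 RPM on day 8. Its log2 fold change was 1.48 ± 0.64 on day 5 (limma, adjusted p = 0.0669, and 0.0485 with the replicate number as a block) and 0.51 ± 0.64 on day 8 (adjusted p = 0.534). These were 1.55 and 0.58 without the X14 libraries of day 0, neither called. Snai2, which encodes Slug, had 2 reads on day 0 and 1 on day 8 over the 4 libraries, where 3 reads over the group would be 0.464 and 0.502 RPM.

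Set side by side per kilobase, the order of levels changed with time. On day 0 Cdh1 was at 99.5 ± 59.4 RPKM (SD, n = 4), Vim at 60.0 ± 22.6, Epcam at 34.4 ± 6.44, Cdh3 at 4.11 ± 2.11 and Zeb1 at 2.02 ± 0.910 RPKM. Of these neighbours only Epcam and Cdh3 were further apart than their SDs together. On day 8 Cdh1 was at 236 ± 56.6, Epcam at 197 ± 55.8, Vim at 38.3 ± 17.2, Cdh3 at 16.5 ± 5.15 and Snai1 at 7.24 ± 2.21 RPKM. Cdh1 and Epcam did not differ there beyond their spread, nor did Vim and Cdh3, while Epcam and Vim, and Cdh3 and Snai1, were further apart than their SDs together. Cdh2, Twist1, Zeb1, Zeb2 and Snai2 were at or under 1.14 RPKM on day 8.

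By day, none of the 10 genes was called on day 1, when 0.0684% of all genes tested were called in limma, 10 genes, with 775 at an unadjusted p under 0.05. On day 2, 2 were called against a background of 2.96%, and on day 3, 3 against 8.89%. On day 4, 3 rose and 1 fell against 18.6% of all genes, 12.2% higher and 6.4% lower. On day 5, 4 were called against 26.8%, on day 6, 6 against 33.4%, and on day 7, 6 against 35.4%. On day 8, 5 rose and 1 fell against 35% of all genes, 23.9% higher and 11.1% lower. From day 4 to day 8, Snai1 and Zeb2 rose and Zeb1 fell (-1.78 ± 0.58, adjusted p = 0.0177), against 24.7% of all genes, 15.7% higher and 9.01% lower. That call of Zeb1 was lost without replicate 2 or 3 (adjusted p of 0.106 and 0.121). Zeb2 had no read on day 4, and its 23 reads of day 8 were all from X14. Its log2 changes in X18, 0.63 and 1.09, rest only on the 0.9 read written for no read. Without the X14 libraries of day 0 the numbers of the 10 genes called on days 1 to 8 were 0, 2, 4, 3, 4, 6, 5 and 5. The counts over all genes on the first days rest on few libraries. On day 1 they were 0 to 141 with 1 replicate left out, beside 10 as given, and on day 2 they were 31 without replicate 3, 33 without replicate 4, 228 without replicate 2 and 1999 without replicate 1, beside 433. On day 3 they were 441 to 720 without replicate 2, 3 or 4 and 2950 without replicate 1, beside 1299. These 3 counts were 820, 3394 and 3644 without the X14 libraries of day 0. The comparisons with day 0 share its 4 libraries, and over all genes the median log2 fold change to day 8 was 0.23. With 75th percentile scaling that median was -0.093, and the share of called genes that were higher was 51.0% in place of 68.1%, with the directions of the called genes named above kept.

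**Figure D3:**
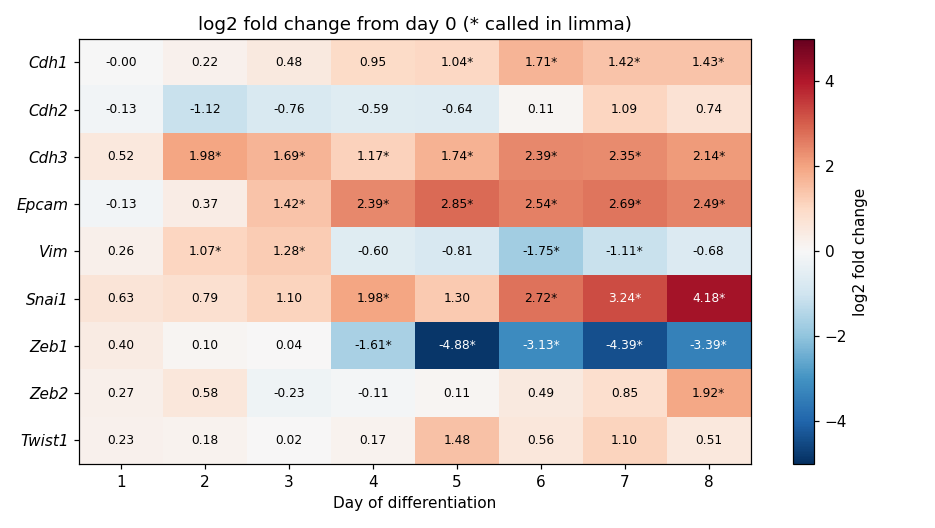
Log2 fold change from day 0 in limma for the 9 tested genes (rows) on days 1 to 8 (columns), with red for higher, blue for lower and a star where the gene was called. Epcam and Cdh3 carry stars from days 3 and 2 on, Zeb1 from day 4 on in blue, and Cdh2 and Twist1 carry none.

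The difference between the libraries named double and single was examined next. Over all days none of the 9 tested genes was called in limma, where 2.99% of all genes were called and 4241 had an unadjusted p under 0.05, and voom called none of the 9 either. Epcam was lower in double in 16 of 18 pairs of line and day, with a log2 difference of -0.24 ± 0.07 (adjusted p = 0.0215), well under the minimum fold change. Without day 0 it was -0.23 (adjusted p = 0.0278), and within X14 and X18 it was -0.21 and -0.27. Cdh1 was lower in double in 14 of 18 pairs, 8 of 8 on days 1 to 4, by -0.31 ± 0.13 (adjusted p = 0.116, and 0.0278 without day 0).

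The double minus single difference of Cdh2 changed between days 1 to 4 and days 5 to 8. On days 1 to 4 Cdh2 ranged from 0.563 to 7.91 RPM in the 8 double libraries (mean 3.97) and from 0 to 3.67 RPM in the 8 single ones (mean 1.47). On days 5 to 8 it ranged from 0 to 10.5 RPM in double (mean 2.98) and from 4.11 to 23.3 RPM in single (mean 10.5). Double was higher in 6 of 8 pairs early and single in 8 of 8 late. The change in the difference was -3.33 ± 0.79 on the log2 scale (limma, adjusted p = 0.0103), where 4.07% of all genes were called. This value depends on the 0.9 read written for no read, since some early single and late double libraries held no Cdh2 read. It was -2.85 to -3.81 with each replicate left out, and the call was lost without replicate 1, 2 or 3 (adjusted p of 0.0671, 0.165 and 0.0542). The fit took the 32 libraries of days 1 to 8 as independent, although the same 4 names of line and label recur on every day. Its p-values leave out any spread that a culture keeps over days.

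Late single libraries held more reads of Cdh2 than the other 24 libraries of days 1 to 8. Of the 247 reads of Cdh2 on days 1 to 8, 129 came from the 8 single libraries of days 5 to 8, 85 of them from X14 and 44 from X18. The late level was 14.6 RPM in X14 single and 6.43 RPM in X18 single, against 4.45 and 1.51 RPM in the double libraries of the same lines. X14 single held 24 of these reads on day 7 and 48 on day 8. The summed RPM of the primitive streak and mesoderm markers was 193 and 232 in these libraries. In the other libraries of the same days it was 15.4 to 82.1 RPM. The part of these markers in the Cdh2 reads was not tested.

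Vim took a like course. On days 1 to 4 its mean was 217 RPM in double and 206 RPM in single, with each higher in 4 of 8 pairs. On days 5 to 8 it ranged from 23.2 to 74.0 RPM in double (mean 50.05) and from 53.9 to 136 RPM in single (mean 85.9), and single was higher in 8 of 8 pairs. The change in the difference was -0.94 ± 0.22 (limma, adjusted p = 0.00849), just under the minimum fold change, and not past the threshold of p without replicate 1, 2 or 3 (adjusted p of 0.0613, 0.222 and 0.0676). These p-values have the same limit as those of Cdh2, since the fit took the libraries as independent.

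Snai1 lay the other way on days 5 to 8, with double higher in 8 of 8 pairs and means of 8.03 RPM in double and 4.25 RPM in single. The change of its difference between the stages was 0.98 ± 0.48, with an adjusted p of 0.272. Double and single cannot be told apart from whatever else distinguishes these cultures.

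**Figure D4:**
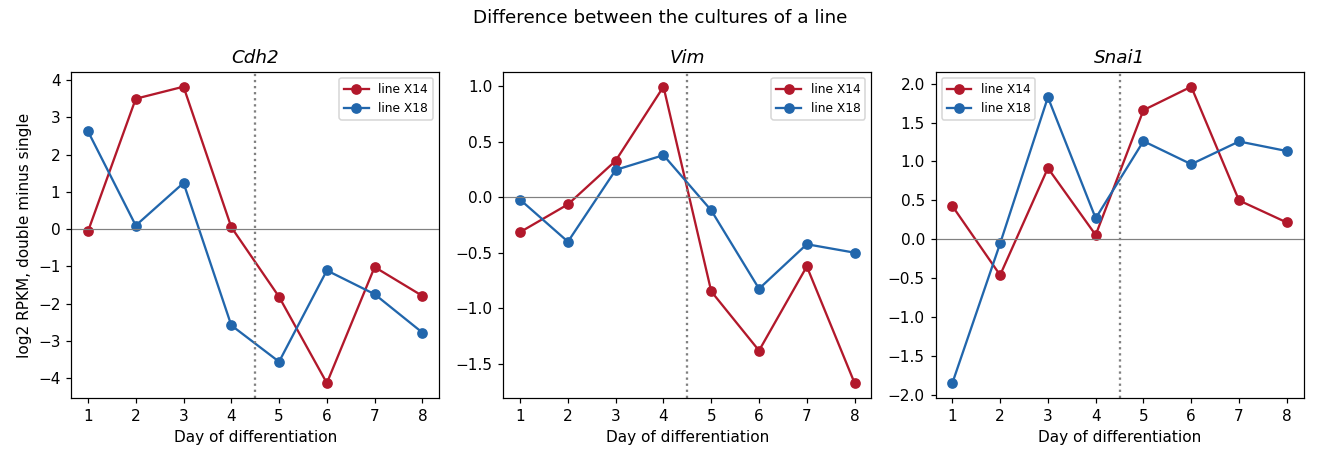
Difference in log2 RPKM between the double and the single library of a line (y axis) on days 1 to 8 (x axis), for Cdh2, Vim and Snai1, with X14 in red and X18 in blue. To the right of the dotted line, on days 5 to 8, all 8 differences are below 0 for Cdh2 and Vim and above 0 for Snai1.

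Between the lines X14 and X18 none of the 9 tested genes was called. In limma 0.0137% of all genes were called, 2 genes, with 2546 at an unadjusted p under 0.05. The lowest unadjusted p among the 9 was that of Zeb1, 0.87 ± 0.22 higher in X14 (unadjusted p = 4.23e-04, adjusted p = 0.169). No gene was called for a line difference that changed between the stages (0%), with 603 genes at an unadjusted p under 0.05 in limma and none called with voom.

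Over the 36 libraries, which share days and cultures, Epcam and Zeb1 ran against each other (Pearson r of log2 RPKM -0.86, given as a description). With the mean of each day taken off, r was -0.62. On days 5 to 8 Zeb1 had 24 reads in the 8 double libraries and 11 in the 8 single ones. Its values there depend on single reads, on the 0.9 read written for no read and on depth. Taking off the day means also leaves differences between the lines in. In X14 Zeb1 was 0.87 higher and Epcam 0.18 lower on the log2 scale, neither called. Cdh1 and Cdh3 ran together, with r of 0.76 and, with the day means taken off, 0.72. Vim and Cdh1 had r of -0.56 over the libraries and 0.28 with the day means taken off.

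Among the 9403 tested genes whose mean over all libraries was 10 RPM or more, those most like Cdh1 by Pearson r over the 36 libraries were Lpar2 (0.96), Lamb1, Lrp5, Lrfn4 and Rgp1, and the most unlike were Uqcr10 (-0.96), Gm9892 and Eif2s2. For Vim they were A2m (0.85), Odz4, Ezh2, Zfp57 and 2410004A20Rik, and at the other end Tnfrsf12a (-0.83), Syt13 and Slc40a1. For Cdh2, with its few reads, the highest were Rdx (0.63), Ephb4, Tdrd3, Tgfbr3 and Spnb3, and the lowest Ash2l (-0.61), Mt1 and Znrd1as.

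Other genes of the junctions and of EMT were read from 6 lists. The largest share that rose was in the list of tight junctions, desmosomes and epithelial regulators, where 26 of 31 tested genes rose from day 0 to day 8 and none fell, with a median log2 fold change of 3.19, beside 23.9% and 11.1% of all genes and a median of 0.23. On day 4, 15 of them had risen and 2 had fallen, beside 12.2% higher and 6.4% lower of all genes. Without the X14 libraries of day 0, 28 rose on day 8, and on day 4 15 rose and none fell. Prss8, a membrane serine protease of epithelia, went from 3.62 ± 2.89 to 192 ± 60.7 RPM (SD, n = 4; log2 fold change 6.12 ± 0.55). The tight junction gene Cldn6 went from 5.27 ± 3.80 to 276 ± 36.9 RPM (5.97 ± 0.58). The desmosomal cadherin gene Dsc2 went from 2.13 ± 1.57 RPM on day 0 through 0.464 ± 0.613 on day 4 to 127 ± 42.6 on day 8 (5.92 ± 0.44).

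Of the catenins and adherens junction partners 7 of 13 tested genes rose on day 8 and none fell, with a median of 1.22. Of all genes 23.9% were higher and 11.1% lower. Some proteins of this list tie cadherins to actin. Jup, which encodes plakoglobin, changed by 2.18 ± 0.38, the vinculin gene Vcl by 1.94 ± 0.39 and Ctnnd1, which encodes p120 catenin, by 1.85 ± 0.30. The count was 4 without replicate 3 and 10 without the X14 libraries of day 0. Of 18 other cadherins 5 could be tested, 1 of which, Cdh24, rose on day 8 and none fell, with a median of 1.13, a share near the 23.9% of all genes. On day 4, 2 of the 5 rose, Cdh10 and Cdh24, beside 12.2% of all genes. Cdh10, chosen after its values were seen, had no read on day 0 and stood at 6.63 ± 1.10 RPM on day 4 (SD, n = 4; limma, adjusted p = 6.95e-06) and at 1.21 ± 1.23 RPM on day 8 (adjusted p = 0.0799). Without the X14 libraries of day 0, 2 rose and 1 fell on day 8.

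Genes of the mesenchymal list moved as well. Of 23 tested genes of matrix, integrins and cytoskeleton 16 rose and 1 fell by day 8, with a median of 1.92, beside 23.9% higher and 11.1% lower of all genes. On day 4 the counts were 4 and 2, near the shares of all genes, 12.2% higher and 6.4% lower, and the median was -0.11, and without the X14 libraries of day 0 they were 5 and 0. Tagln, an actin-binding protein of smooth muscle, had 1 read on day 0 and 1023 on day 8, a ratio of 1107 in RPM (exact 95% interval 198 to 43773, counting error only). Col1a2, a chain of type I collagen, and Acta2, smooth muscle actin, had no read on day 0 and were at least 80.8-fold and 48.7-fold higher on day 8 against 3 reads over the 4 libraries. Timp1, an inhibitor of metalloproteinases, fell from 45.8 ± 25.0 to 10.7 ± 3.01 RPM (-1.96 ± 0.50). The 6 fibroblast markers summed to 3.59 RPM (0 to 10.7) on day 0 and to 53.5 RPM (40.4 to 77.3) on day 8. Most of the sum of day 8 was Col1a2, at 34.4 RPM, and Col1a1, at 12.9 RPM. Postn was at 4.36 RPM and Col3a1 at 0.616 RPM, and S100a4 had no read on either day. Thy1 was at 1.74 RPM on day 0, 21.9 on day 4 and 1.19 on day 8. Of these markers Col1a1, Col1a2, Col3a1, Thy1 and S100a4 are on both lists. Their part in the result was not tested.

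In the TGF-beta list 7 of 12 tested genes rose and none fell by day 8, with a median of 1.85. Of all genes 23.9% were higher and 11.1% lower, with a median of 0.23. The ligand gene Tgfb2 had no read on day 0 and was at least 27.4-fold higher on day 8. The receptor gene Tgfbr2 went from 1 to 75 reads, a ratio of 81.2 in RPM (exact 95% interval 14.1 to 3248, counting error only), and Tgfbr3 changed by 3.27 ± 0.59. Of 12 tested genes among other EMT transcription factors and partners 5 rose and 3 fell, with a median of 0.67. The shares of all genes beside them are those just given. Sox4 (3.49 ± 0.62), Lats2 (2.92 ± 0.44) and the corepressor gene Ctbp1 (1.40 ± 0.27) rose. Klf8 changed by -1.72 ± 0.53. Of these 12, 7 rose and 1 fell without the X14 libraries of day 0. All of these are limma fits with adjusted p-values from 5.98e-14 for Tagln to 0.00864 for Klf8.

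**Figure D5:**
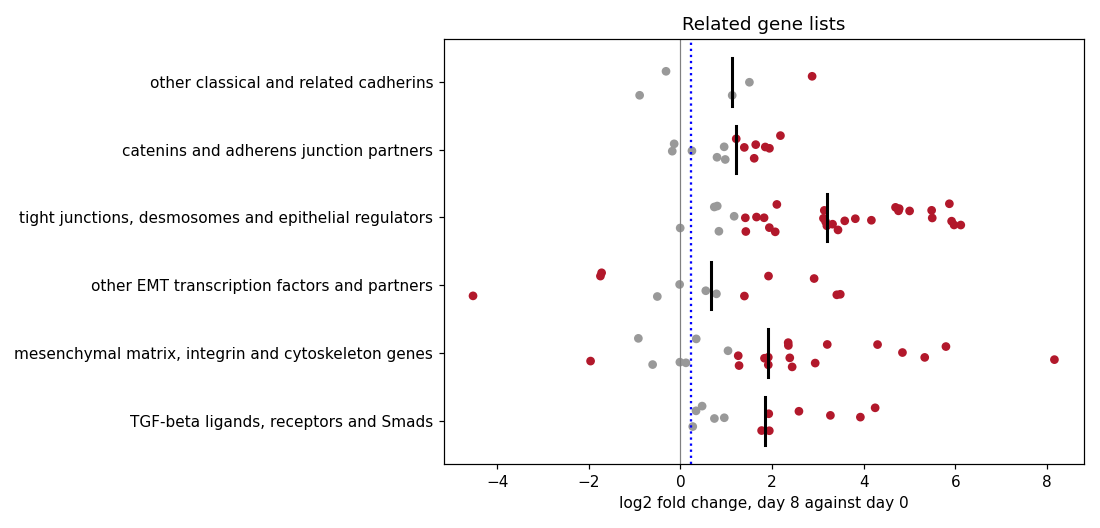
Log2 fold change from day 0 to day 8 (x axis) of every tested gene of the 6 lists (rows), in red where called and in grey where not. The black bar is the median of the list, the dotted blue line the median of all genes tested, 0.23, and the list of tight junctions, desmosomes and epithelial regulators has its median at 3.19.

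Markers of other cell types moved over the same days. The trophoblast markers summed to 4.74 RPM on day 0 (2.78 to 9.39) and 373 on day 8 (245 to 542), of which Krt7, a keratin of simple epithelia, made 364 RPM and Cdx2 7.48 RPM. The primitive streak and mesoderm markers went from 4.31 RPM (0 to 6.94) to 92.8 (18.3 to 232), with T, the brachyury gene, at 75.5 RPM. The endoderm markers went from 4.11 RPM (0 to 10.6) to 33.5 (23.8 to 57.8). Most of the sum of day 8 was Dab2, at 0.347 RPM on day 0 and 30.1 RPM on day 8. Gata6 was at 0 on day 0 and 0.850 RPM on day 8, Gata4 at 2.95 and 0.859 RPM and Sox17 at 0.695 and 1.71 RPM. Afp, Ttr and Apoa1 had no read on day 8. The neural markers went from 99.0 RPM (80.2 to 125) through 167 on day 2 (135 to 211) to 26.2 on day 8 (16.7 to 36.9). The libraries are of whole cultures, where fewer cells of a type and less RNA per cell cannot be told apart, and the part of these markers in the values above was not tested.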

How the data were processed

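RNA-seq of 36 libraries of differentiating Xmas mESCs was used. Per the methods of the study and the processing notes of the submitters, reads were aligned to mm10 (TopHat2 2.0.12 is named) and quantified in SeqMonk. The annotation version and the strand setting are not given in the sources used here. The study names the values deposited by the authors log2 RPM. They were taken here as log2 RPKM with a gene without reads written as 0.9 read, which was inferred from the values: they resolve to whole reads with a length for each gene, and that length was the merged exon length in GENCODE M21 for 49.3% of 22710 matched genes. Whole reads were recovered for 100% of values (within 0.00108 read for the 10 genes) and gave RPM, ratios and floors. All 36 value columns were used.

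The deposited log2 values were fitted with limma 3.58.1 (lmFit, eBayes with trend) in R 4.3.3, with day as a factor and Benjamini-Hochberg adjustment over 14612 genes. Label and line fits added day and the other term, and the stage fits used the 32 libraries of days 1 to 8. None of these fits held a block for the culture, so they took the libraries as independent. The fits were run on simulated data with independent libraries and with changes planted only in genes of 10 RPM or more. Such data cover neither a spread shared by a culture nor changes of genes with few reads. Replicates 1 to 4 are X14 double, X14 single, X18 double and X18 single on every day by the library names, so the numbers pair the samples by line. Deviations from the day means correlated by 0.089, 0.12, 0.14 and 0.17 on average within a number and by -0.058 to -0.028 between numbers.

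The 10 genes and the lists were chosen with earlier results of these data known. Named genes were the 10, from each list up to 3 called genes with the largest rise and fall among those over 10 RPM, the 5 most and 3 least like Cdh1, Cdh2 and Vim, and the cell type markers. T, Krt7, Cdx2, Gata4, Gata6, Dab2, Sox17, Afp, Ttr, Apoa1, Tubb3, Pax6, Sox1 and the fibroblast markers were picked from the markers after their values were seen. Nectin2 was matched to no line. Intervals and floors cover counting error only, since no molecular identifiers were used. The values of 1 gene among the other EMT transcription factors and partners are not reported here.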

Additional observations from a re-analysis of the deposited data

Results flagged for a closer look

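On day 5 the Epcam level of the X18 single library, 449.6 RPM, stood apart from the other 3 libraries of that day, which lay between 512 and 522 RPM. Among 43 groups of 4 libraries checked in this way it was the only such library, and chance alone gives about 1 in 20.

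The double minus single difference of Cdh2 differed between days 1 to 4 and days 5 to 8 by -3.33 on the log2 scale (limma, adjusted p = 0.0103). The value for Cdh2 depends on the 0.9 read written for no read. The double minus single difference of Vim differed by -0.94 (limma, adjusted p = 0.00849). Single was higher in 8 of 8 pairs on days 5 to 8 for both genes. Both adjusted p were over the threshold without replicate 1, 2 or 3. Without replicate 4 they were 0.0478 for Cdh2 (-3.81) and 0.0118 for Vim (-1.25), both called. All of these fits took the libraries as independent, so their p-values leave out any spread that a culture keeps over days.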

How the results depend on the processing

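Over 527 pairs of a called value and an alternative, 484 kept direction and call and 43 lost the call; over 610 pairs of a value not called, 16 gained a call and 24 changed sign. The number of the 10 genes called on day 2, 2 as reported, was 1 with no filter, 75th percentile scaling or quantile normalization. That of day 4, 4 as reported, was 2 with no filter and 2 with the 2 days compared alone. That of day 8 against day 4, 3 as reported, was 1 among genes over 10 RPM. For double against single, 0 as reported, it was 1 with no minimum fold change, and for label by stage, 1 as reported, it was 0 among genes over 10 RPM, where fewer genes are tested, and 2 with no minimum fold change. With 1 replicate left out the counts were 0 to 2 on day 2, 1 to 3 on day 3, 1 to 4 on day 4 and 0 to 2 for label by stage. The causes were not tested.

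Some values that were not called changed sign. For Cdh2 on day 4 the value was 0.47 without the X14 libraries of day 0 and -1.498 to 0.029 with 1 replicate left out, and on day 8 it was -0.0037 to 1.59. For Cdh3 between lines it was -0.063 without day 0, -0.017 in double alone and -0.017 to 0.21 with 1 replicate left out. Epcam from day 4 to 8 was -0.066 with 75th percentile scaling. Snai1 between lines was 0.088 on log2 of RPM plus 1, 0.043 with voom and 0.015 without day 0. Twist1 was -0.21 on day 4 and -0.033 on day 8 with quantile normalization, -0.13 from day 4 to 8 with voom, and with 1 replicate left out -0.28 to 0.47, -0.19 to 1.38 and -0.28 to 0.98. Vim from day 4 to 8 was -0.54 to 0.35, Zeb2 on day 4 -0.33 to 0.14. Zeb2 between labels was 0.13 in X18 alone and -0.26 to 0.13 with 1 replicate left out. Vim on day 8 was called with 75th percentile scaling (-1.002, adjusted p = 0.00715), and Cdh3 from day 4 to 8 with voom (1.002, adjusted p = 0.0346).

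The replicate block kept 6 of the 10 genes called on day 8 and 3 from day 4 to 8, and apart from day 5 (4 as reported, 6 with the block) it changed no such count against day 0. Of all genes, 2720 were called on day 4 and 1728 among those over 10 RPM, 1656 and 1808 without replicate 3 or 4, and 4355 without the X14 libraries of day 0. On days 1, 2 and 3 there were 10, 433 and 1299, with ranges of 0 to 141, 31 to 1999 and 441 to 2950 without a replicate and 820, 3394 and 3644 without the X14 libraries of day 0. On day 2 there were 687 with the block. On day 8 5114 became 3222 among genes over 10 RPM, and 3606 became 2041 from day 4. Between labels 437 became 221, 2290 with no minimum fold change, 663 without day 0, 0 in X14 alone and 130 to 455 without a replicate. For label by stage 594 became 188 to 274 without a replicate. With 75th percentile scaling 51.0% of genes called on day 8 were higher, against 68.1% as reported, and the median of all genes was -0.093. Depth limits Cdh2, Snai1, Snai2, Zeb2 and Twist1, whose libraries mostly hold few reads.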

Other observations

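Cdh1 and Cdh3, neighbours on chromosome 8, shared their deviations from the day means over the 36 libraries (Pearson r = 0.72, a description). Both were lowest on day 0 in the X18 double library, at 166 and 6.17 RPM, and both were lowest on day 5 in the X14 double library, at 451 and 14.3 RPM. Cdh2 and Snai1 had r of -0.46 by the same measure, and Cdh2 and Vim 0.46.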
